A study of Homo sapiens with 8 samples.

Results

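Internal 5′UTR peaks are stretches of the 5′ untranslated region (5′UTR) that were richer in m6A immunoprecipitate (IP) than in input and that did not begin at the first base of the mRNA. They were taken from the peak lists of Mel624 cells, a human melanoma cell line, in which FTO was knocked down with a short hairpin RNA (shFTO) or which carried a control hairpin (shNC). Each group had 2 replicates, each with an IP and an input library from poly(A) mRNA, and 1 peak list was deposited per group. Per the methods, cells given hairpins by lentivirus were selected with puromycin. No other treatment is named for the cells of this assay. The members were all rows labelled 5UTR whose start on the isoform was above 1, which gave 791 of 18551 peaks in the shFTO list and 809 of 19072 peaks in the shNC list. Peaks of the lists were treated as the same place when they lay on the same isoform and overlapped by at least 1 nt.

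The methyl group of m6A is written on adenosines of mRNA by the METTL3 and METTL14 methyltransferase complex, most often in sequences such as GGACU, and it is read by YTH domain proteins. FTO is a demethylase that acts on internal m6A and on m6Am, the methylated adenosine next to the cap, which the antibody also recognises. The 5′UTR is where the ribosome scans for the start codon, and m6A there has been linked to initiation of translation without the cap-binding complex. In the lists, 440 5′UTR peaks of shFTO and 443 of shNC started at position 1 of the isoform, and these were kept apart from the internal peaks. The study asked how FTO knockdown alters m6A along mRNAs.

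The motif GGACU is given here in 11 internal 5′UTR peaks that the results turn on, because the lists name this motif and its position for each peak. Each line is 5′ to 3′ with 1 listed GGACT in capitals, T in place of U and 12 bases of the mRNA on either side. The TNFAIP3 line holds another GGACT among its lower-case bases, and 2 GGACU were listed in that peak in both groups. The peaks of PRKD3, TOR1AIP2 and ARHGEF12 were among the highest of both groups, those of IQCK, GPR161 and SYTL2 had lower scores in both shFTO replicates, that of FAM102A had higher scores in both, and TNFAIP3, SLC35A4, EIF4G1 and FOSB come from the gene lists described further on.
PRKD3: tgctttttgatgGGACTgatattaagaga
TOR1AIP2: ccacgatcaagaGGACTctgccaggtttt
ARHGEF12: tcgactcactctGGACTgactcgctccct
IQCK: attccgcccacaGGACTccaaagcctgtg
GPR161: tcgtccacggcgGGACTggaggaggagaa
SYTL2: tcccacagaccaGGACTtcctcatgggaa
FAM102A: ggcccgcgaactGGACTggtggatctctc
TNFAIP3: ctgccttgaccaGGACTtgggactttgcg
SLC35A4: gaagacattaagGGACTatttgcagttgc
EIF4G1: aggccgcaccgtGGACTtgttcttaatcg
FOSB: agcgtactttgaGGACTcgctcagctcac

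The sequences came from GENCODE version 44 transcripts on hg38 and each lay within 1 exon, in the annotated 5′UTR. Their places were chr2:37316720-37316748 on the minus strand for PRKD3, chr1:179865726-179865754 on the minus strand for TOR1AIP2, chr11:120336997-120337025 on the plus strand for ARHGEF12 and chr16:19717805-19717833 on the plus strand for IQCK. That of GPR161 was chr1:168137336-168137364 and that of SYTL2 was chr11:85757913-85757941, both on the minus strand. FAM102A lay at chr9:127980296-127980324 on the minus strand and TNFAIP3 at chr6:137867443-137867471 on the plus strand. SLC35A4 lay at chr5:140566714-140566742, EIF4G1 at chr3:184315512-184315540 and FOSB at chr19:45468445-45468473, all on the plus strand. On the GENCODE transcript, the adenosine of the motif was 54 nt before the annotated start codon in EIF4G1, 128 nt in FOSB, 210 nt in PRKD3 and 488 nt in IQCK. The transcripts of IQCK, GPR161, SYTL2 and FOSB were taken to have the same start as the authors' isoform, by a rule described further on. Those of the other 7 genes matched the listed motifs after another shift.

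Internal 5′UTR peaks lay at similar places in both lists. The peaks of shFTO fell on 738 isoforms, 1 isoform per gene, of which 690 had 1 such peak, 43 had 2 and 5 had 3. The peaks of shNC fell on 728 isoforms, of which 660 had 1, 57 had 2, 9 had 3 and 2 had 4. The median start was position 100 in shFTO and 107 in shNC, with quartiles of 40 and 268 in shFTO and 41 and 264 in shNC. Starts ran up to position 2824 in shFTO and 1570 in shNC. The median width was 239 nt in shFTO and 240 nt in shNC, and the commonest width was 239 nt in both, with 45 peaks in shFTO and 46 in shNC. At the limit that defines the members, peaks starting at position 2 or 3 had a median score of 1.86 in shFTO (n = 10) and 1.84 in shNC (n = 9), while peaks starting at position 1 had 2.30 in shFTO (n = 440) and 2.39 in shNC (n = 443).

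**Figure D1:**
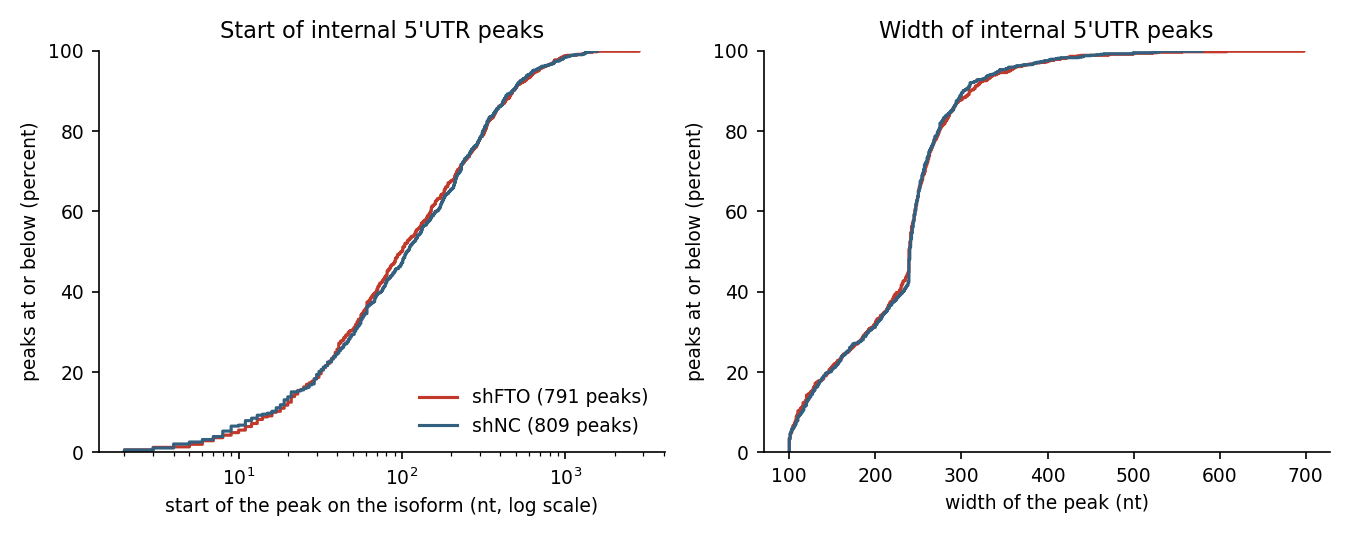
Cumulative percent of internal 5′UTR peaks by start on the isoform (left, nt, log scale) and by width (right, nt) for 791 shFTO and 809 shNC peaks. The curves of the groups run close together, and both width curves step up at 239 nt.

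The deposited value of a peak is a log2 enrichment score per replicate, the IP signal of the peak over the median window of the same mRNA, divided by the same quotient in the input. It thus sets a stretch of an mRNA against the other stretches of that mRNA. Internal 5′UTR peaks had a median score of 2.19 in shFTO replicate 1 and 2.10 in shFTO replicate 2, against 2.30 in shNC replicate 1 and 2.20 in shNC replicate 2. The score of a single peak differed between the replicates of 1 group by a median of 0.31 in shFTO and 0.35 in shNC on the log2 scale. Scores of 4 or more were reached by 59 peaks in shFTO (7.46%) and 65 in shNC (8.03%), and 57 peaks of shFTO and 51 of shNC were below 1 in at least 1 replicate.

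Set against the other regions, the internal 5′UTR peaks were closer in median score to those at the start codon than to those in the CDS, at the stop codon or in the 3′UTR. The median of the mean score was 2.12 in shFTO and 2.23 in shNC, and for start codon peaks it was 2.15 in shFTO and 2.20 in shNC. Stop codon peaks had medians of 2.95 in shFTO and 2.92 in shNC, 3′UTR peaks had 2.62 in shFTO and 2.64 in shNC, and coding sequence (CDS) peaks had 2.56 in shFTO and 2.58 in shNC. The quartiles of the internal 5′UTR peaks, 1.58 and 2.91 in shFTO and 1.64 and 3.01 in shNC, overlapped those of every other region. These are descriptions of 1 list per group and were not tested.

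**Figure D2:**
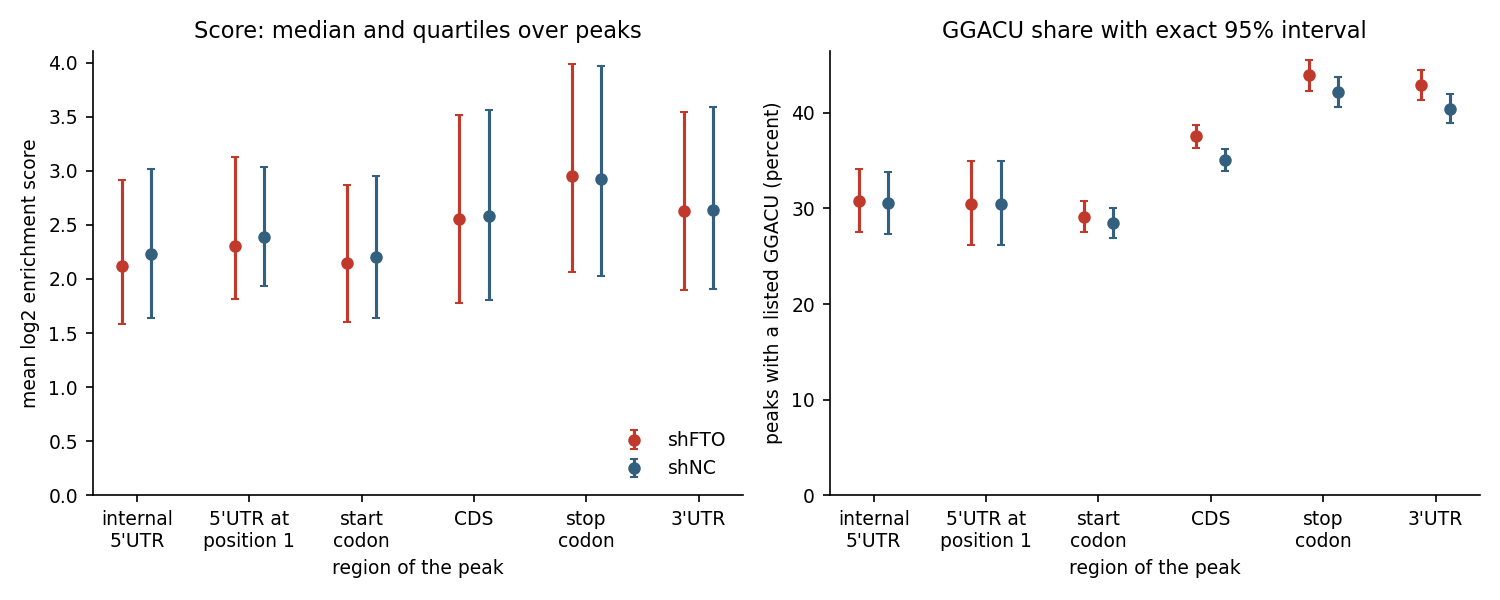
Left, median (points) and quartiles (bars) of the mean log2 enrichment score of the peaks in each region; right, percent of peaks with at least 1 listed GGACU with exact 95% intervals; shFTO and shNC side by side. Internal 5′UTR peaks had medians of 2.12 in shFTO and 2.23 in shNC, and GGACU shares of 30.7% in shFTO and 30.5% in shNC.

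A listed GGACU was present in 243 of 791 internal 5′UTR peaks of shFTO, a share of 30.7% (exact Clopper-Pearson 95% interval 27.5 to 34.1%), and in 247 of 809 of shNC, a share of 30.5% (27.4 to 33.8%). The intervals cover counting error only. The share was 30.5% in shFTO and 30.5% in shNC for peaks at position 1, and 29.1% in shFTO and 28.4% in shNC for start codon peaks, all within the intervals of the internal peaks. It was 37.5% in shFTO (36.3 to 38.8%) and 35.1% in shNC (33.9 to 36.3%) for CDS peaks, and 43.9% in shFTO (42.3 to 45.5%) and 42.2% in shNC (40.6 to 43.8%) for stop codon peaks. Among internal 5′UTR peaks, 52 of shFTO and 57 of shNC held 2 or more GGACU, up to 4 in 1 peak. The regions differed in peak width, and per kb of peak the order was another. Internal 5′UTR peaks held 1.73 GGACU per kb in shFTO and 1.73 in shNC, close to CDS peaks with 1.75 in shFTO and 1.71 in shNC. Start codon peaks held fewer, 1.43 in shFTO and 1.42 in shNC, and stop codon peaks more, 2.02 in shFTO and 1.99 in shNC. These densities were not tested.

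The motif was more frequent among the highest internal 5′UTR peaks. When the members were split into 4 equal groups by mean score, in the highest group 43.1% of shFTO peaks (36.1 to 50.4%, n = 197) and 45.5% of shNC peaks (38.5 to 52.7%, n = 202) held a GGACU. The other 3 groups had shares from 23.7% to 29.3% in shFTO and from 21.2% to 29.2% in shNC, and the interval of the highest group lay above each of these shares. The peaks of the highest group were also wider, with a median of 248 nt in shFTO and 249.5 nt in shNC, against 200.5 nt in shFTO and 186 nt in shNC in the lowest group. The groups between them, from lower to higher score, had medians of 235 and 243 nt in shFTO and 240 and 242 nt in shNC. The part of width in the share was not tested. Among peaks with a mean score of 3 or more, the internal 5′UTR share was 43.9% in shFTO (n = 180) and 45.3% in shNC (n = 203), beside 32.8% in shFTO and 32.8% in shNC for start codon peaks, 43.6% in shFTO and 41.3% in shNC for CDS peaks, 49.6% in shFTO and 47.3% in shNC for stop codon peaks and 48.5% in shFTO and 44.6% in shNC for 3′UTR peaks. Under a score of 2 it was 26.0% in shFTO and 25.3% in shNC for internal 5′UTR peaks, and in each of the other regions, peaks at position 1 included, the share was likewise higher at scores of 3 or more than under 2. By position, the share was 26.3% in shFTO and 31.1% in shNC for starts of 2 to 50, and 34.2% in shFTO and 34.7% in shNC for starts above 500, with overlapping intervals. Within peaks, 41.2% of the 311 motifs of shFTO and 41.5% of the 316 motifs of shNC lay within 50 nt of the peak centre, where an even spread over each peak would give 42.0% in shFTO and 41.5% in shNC.

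For 196 of the 971 isoforms with an internal 5′UTR peak in either list, a GENCODE transcript held GGACT at the spacing of the listed motifs. In 82 of the 196 GGACT stood at a shift of -3 nt from the listed positions, and isoform and transcript were taken to have the same start. This offset was inferred from the data. It was the commonest shift among 442 placed isoforms with several motifs (63 isoforms, and 8 for the next shift). The other 114 were met only after another shift, which leaves the first bases of the authors' isoform open. The values of this paragraph are for the isoforms taken to have the same start. These isoforms were found through their GGACU and are not a random sample of the members. Their 5′UTRs had a median length of 580 nt over the shFTO peaks (n = 71) and 562 nt over the shNC peaks (n = 72). The end of the peak was a median of 172 nt before the start codon in shFTO and 135 nt in shNC, and 14 shFTO and 16 shNC peaks ended within 50 nt of it. Upstream AUG triplets, which can be met by a scanning ribosome before the main start codon, were found in 43 of the shFTO peaks (60.6%) and 49 of the shNC peaks (68.1%). Their density was 8.13 per kb in the shFTO peaks and 9.42 per kb in the rest of the same 5′UTRs, and 8.01 per kb in the shNC peaks and 9.24 per kb in the rest. The median GC content was 61.7% in the shFTO peaks and 60.2% in the rest of those 5′UTRs, and 62.7% in the shNC peaks and 56.6% in the rest, over the 69 shFTO and 70 shNC peaks with at least 50 nt outside the peak. It was lower inside the peak than in the rest for 33 of the 69 shFTO peaks and 28 of the 70 shNC peaks. The wider m6A consensus DRACH (D is A, G or T, R is A or G, and H is A, C or T), searched on the sense strand and with GGACT left out, was found 18.8 times per kb in shFTO peaks and 14.9 times in the rest, and 17.9 times per kb in shNC peaks and 14.8 times in the rest. These values were not tested.

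Most internal 5′UTR peaks had a counterpart in the other list. Of the shFTO peaks, 527 (66.6%) overlapped an internal 5′UTR peak of shNC, 83 (10.5%) overlapped a start codon peak but no internal 5′UTR peak, 28 (3.54%) overlapped a peak at position 1 alone, and 153 (19.3%, 16.6 to 22.3%) overlapped no shNC peak. Of the shNC peaks, 538 (66.5%) overlapped an internal 5′UTR peak of shFTO, 75 (9.27%) a start codon peak, 31 (3.83%) a peak at position 1, and 165 (20.4%, 17.7 to 23.3%) no shFTO peak. The shares without any counterpart were alike within their intervals. Counterparts at the start codon were wider than the members. Such counterparts reach the start codon while the members end before it, so part of this difference is built in. The 42 shFTO peaks with a single start codon counterpart were a median of 173 nt wide, against 254 nt for their shNC counterparts, and the 47 such shNC peaks 202 nt, against 254 nt for their shFTO counterparts. With counterparts at position 1 the widths were closer. The 25 shFTO peaks with a single such counterpart were a median of 232 nt wide, against 219 nt in shNC, and the 26 such shNC peaks had a median of 243 nt, with 234.5 nt for their shFTO counterparts. Over these 25 pairs the log2 ratio of the scores (shFTO over shNC) had a median of -0.29. Both shFTO scores lay below both shNC scores in 14 and above them in 1, beside 17.7% and 15.7% of all one-to-one pairs. The 26 pairs had a median of 0.03, with 5 below and 4 above. With start codon counterparts, the 42 pairs had 0.03 (9 below, 6 above) and the 47 pairs -0.15 (9 below, 5 above). These counts were not tested.

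Peaks without a counterpart were lower and narrower. In shFTO their median score was 1.64 and their median width 180 nt, against 2.41 and 245 nt for shFTO peaks with an internal counterpart. In shNC the medians were 1.87 and 170 nt, against 2.46 and 244 nt. Of these peaks, 120 of 153 in shFTO and 130 of 165 in shNC lay on an isoform that had a peak elsewhere in the other list. A GGACU was listed in 21.6% of those in shFTO and 26.1% of those in shNC, against 34.3% and 33.8% of the peaks of shFTO and shNC with an internal counterpart. The part of width in this difference was not tested.

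The highest peaks found in the shFTO list alone were on HPS3, RABGEF1, NT5E, MYPN and ARPC4. HPS3, which encodes a subunit of a complex for melanosome biogenesis, had a peak at positions 18 to 124 with scores of 4.39 and 4.61 in shFTO, and the nearest shNC peak on this mRNA was 153 nt away. RABGEF1, an exchange factor for the endosomal GTPase RAB5, had scores of 5.07 and 4.31 at positions 474 to 762. NT5E, the ectoenzyme that makes adenosine from AMP, had 4.32 and 3.97 at positions 119 to 365, and ARPC4, a subunit of the ARP2/3 actin nucleator, 4.21 and 3.75. MYPN, a sarcomere protein gene, had 4.19 and 3.80 and no peak at all in the shNC list. Each of the 5 had scores well above 1 in both shFTO replicates, and no shNC score exists for these places.

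The highest peaks found in the shNC list alone were on CAB39, GCNT2, P4HA2, POLR1B and PABPN1. CAB39, an activator of the kinase LKB1, had scores of 5.01 and 6.14 in shNC at positions 105 to 211, and a shFTO peak began or ended at the next base. P4HA2, a collagen prolyl hydroxylase subunit, had 4.96 and 4.03 in shNC and likewise had a shFTO peak 1 nt away. The nearest shFTO peak was 21 nt away for POLR1B, an RNA polymerase I subunit (4.54 and 3.81 in shNC), 1088 nt away for GCNT2, a glycosyltransferase (5.62 and 4.53), and 1565 nt away for PABPN1, the nuclear poly(A)-binding protein (3.91 and 3.98). Absence from a list thus included peaks with a neighbour at their very edge.

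The lists also cut the same stretch into different numbers of peaks. An abutting neighbour was present for 158 of 791 internal 5′UTR peaks of shFTO and 208 of 809 of shNC. On SLC4A2, an anion exchanger, 1 shFTO peak at positions 325 to 701 (5.52 and 4.24) stood against 3 abutting shNC peaks between positions 90 and 705, with scores of 4.68 and 3.31, 5.93 and 4.62, and 4.46 and 3.91. CNTROB, which encodes a centriole protein, had 2 internal 5′UTR peaks in shFTO and 4 in shNC. ARHGEF40, a guanine nucleotide exchange factor gene, had 2 in shFTO and 3 in shNC. MAP3K4 and BRD2 had 3 in each list, at nearly the same places. In MAP3K4, a kinase of stress signalling, the 3 peaks averaged 5.33, 4.39 and 5.27 in shFTO and 4.82, 4.36 and 4.98 in shNC, in 5′ to 3′ order. In BRD2, a chromatin reader, they averaged 1.66, 1.40 and 1.84 in shFTO and 1.44, 1.71 and 1.80 in shNC.

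The scores were compared for 418 internal 5′UTR peaks that overlapped exactly 1 internal 5′UTR peak of the other list, on 404 isoforms, within a fit of all 12117 one-to-one pairs. Their log2 ratios (shFTO over shNC) had a median of -0.0016, beside -0.013 over all pairs, with 206 ratios above 0 and 212 below. The ratios had an SD of 0.39 over the pairs and ran between -1.28 and 1.14. Over these pairs the medians of the replicates were 2.36 and 2.32 in shFTO and 2.43 and 2.37 in shNC. In limma with Benjamini-Hochberg adjustment over all pairs, 0 of the 418 passed an adjusted p of 0.05, as did 0.0% of all pairs, and the smallest adjusted p of an internal 5′UTR pair was 0.566. At an unadjusted p of 0.05, 7 were higher in shFTO (1.67%, beside 2.3% of all pairs) and 15 were lower (3.59%, beside 3.68% of all pairs). Both shFTO scores lay above both shNC scores in 67 pairs, beside 15.7% of all pairs, and below them in 74 pairs (17.7%), beside 17.7% of all pairs. With 2 replicates per group, and no statement that they came from separate cultures, these p-values measure only the spread between the libraries, which may be technical.

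**Figure D3:**
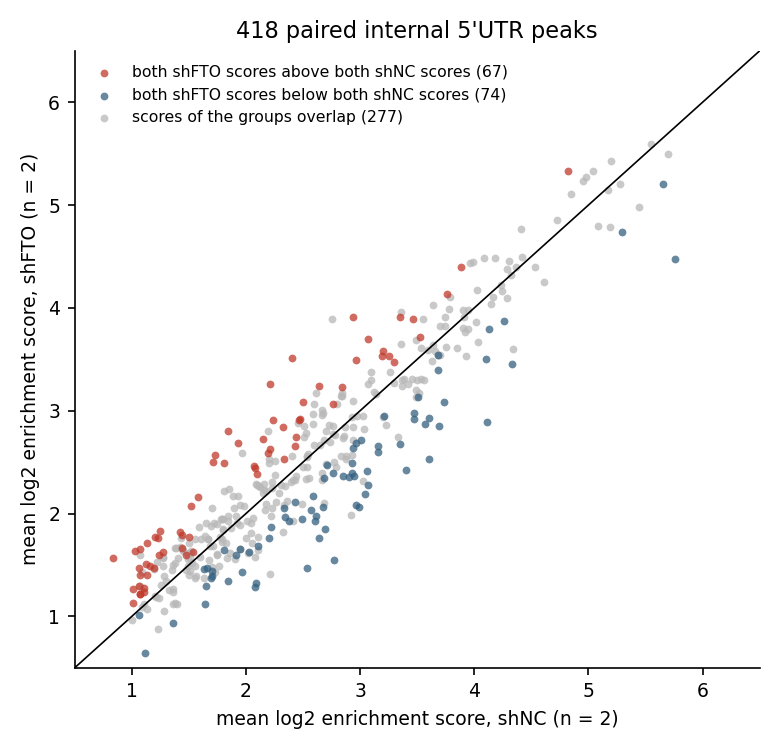
Mean log2 enrichment score in shFTO (vertical) against shNC (horizontal) for 418 paired internal 5′UTR peaks, each point 1 pair and each mean over 2 replicates; the line marks equal scores. The scores of the groups do not overlap in 67 pairs above and 74 pairs below, and overlap in 277.

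The libraries did not group by knockdown over these peaks. The correlation of scores was 0.88 between the shFTO replicates and 0.88 between the shNC replicates, and 0.86 to 0.90 between libraries of different groups, over the same 418 pairs of peaks, which are not independent replicates. The highest was that of shFTO replicate 1 with shNC replicate 2.

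The highest pairs were ranked by the lowest of their 4 scores, a rule that takes pairs high in both groups. The top 12 pairs lay on 11 isoforms and were never below 4.48. PRKD3, a protein kinase D family member, had scores of 5.73 and 5.27 in shFTO and 5.37 and 6.03 in shNC at positions 141 to 412. MGAT4B, an N-glycan branching enzyme, had 5.72 and 5.48 in shFTO and 6.03 and 5.06 in shNC. PTP4A1, a protein tyrosine phosphatase, had 5.04 and 5.37 in shFTO and 5.73 and 5.58 in shNC, with both shFTO scores below both shNC scores. ZDHHC5, a palmitoyltransferase, had 5.23 and 5.19 in shFTO and 5.59 and 4.95 in shNC. The others were on ACACA, the acetyl-CoA carboxylase of fatty acid synthesis, ARHGEF12, EPB41, PPP2R2D, SLC37A4, TOR1AIP2 and MAP3K4, which had 2. The groups overlapped in 10 of the 12 pairs, beside 277 of the 418, and the log2 ratios ran between -0.46 for ACACA and 0.51 for the first MAP3K4 peak. GGACU was listed in 7 of the 12.

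The pairs with the lowest ratios among those above the median score and without overlap of the groups were led by IQCK. Its peak at positions 158 to 420 had scores of 4.45 and 4.50 in shFTO, against 5.95 and 5.57 in shNC at positions 147 to 421. The log2 ratio was -1.28 (95% interval -1.95 to -0.61), with an adjusted p of 0.566 in limma. This was the lowest ratio of the 418 pairs, and the internal 5′UTR peak was the only peak listed for the mRNA in either group. GPR161, a receptor that restrains Hedgehog signalling, had 2.72 and 3.07 in shFTO and 3.81 and 4.41 in shNC, a log2 ratio of -1.22 (-1.96 to -0.48). STAG2, a subunit of cohesin, had 3.39 and 3.52 in shFTO and 4.49 and 4.17 in shNC, a log2 ratio of -0.88. The replicates of each group were close in STAG2 and in NDST2, a heparan sulfate-modifying enzyme with 2.09 and 2.07 in shFTO and 3.01 and 2.92 in shNC.

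Others of these 10 were ITGA4, an integrin alpha subunit (-0.97), TRAPPC6B, a subunit of a vesicle tethering complex (-0.93), TAOK2, a protein kinase (-0.85), UBE4B, a ubiquitin ligase (-0.84), and SYTL2, a RAB27 effector in vesicle transport (-0.80). An unadjusted p of 0.05 or less was reached by 9 of the 10, with SYTL2 as the exception, and none passed after adjustment in limma, where adjusted p ran between 0.566 and 0.837. These pairs were picked for their differences, so their values are a description.

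The pairs with the highest ratios under the same rule were led by FHL2, a LIM-domain protein gene. Its scores were 3.25 and 3.77 in shFTO and 3.16 and 1.64 in shNC, a log2 ratio of 1.10 (0.03 to 2.18). Here the shNC replicates differed from each other by more than the group means did. CLDND1, a claudin-domain membrane protein gene, had 3.17 and 3.34 in shFTO and 1.59 and 2.82 in shNC. ZFAND6, a zinc finger protein gene, had 3.96 and 3.85 in shFTO and 3.50 and 2.38 in shNC. In CLDND1 and ZFAND6, as in FHL2, the shNC replicates differed by more than the group means. RARA, the retinoic acid receptor alpha, had 2.93 and 2.90 in shFTO and 2.07 and 2.40 in shNC, a log2 ratio of 0.68 (0.02 to 1.34), in a peak with 4 listed GGACU. These 4 reached an unadjusted p of 0.05 or less and none of the 10 passed after adjustment in limma, with adjusted p between 0.767 and 0.915.

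YTHDC1, the nuclear m6A reader, was the single writer, eraser or reader gene among the 418 pairs. Its peak at positions 11 to 258 scored 3.16 and 3.02 in shFTO and 2.43 and 2.57 in shNC, a log2 ratio of 0.59 (-0.05 to 1.24) with an adjusted p of 0.854 in limma. The remaining 5 were FAM102A (EEIG1 in current annotation, 0.63), STK17B, a death-associated kinase (0.59), AKR1A1, an aldehyde reductase (0.58), SLC6A6, the taurine transporter (0.57), and IFT80, of intraflagellar transport (0.53). In STK17B and SLC6A6 the shFTO replicates stood further apart from each other than the lower of them stood from the shNC scores.

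**Figure D4:**
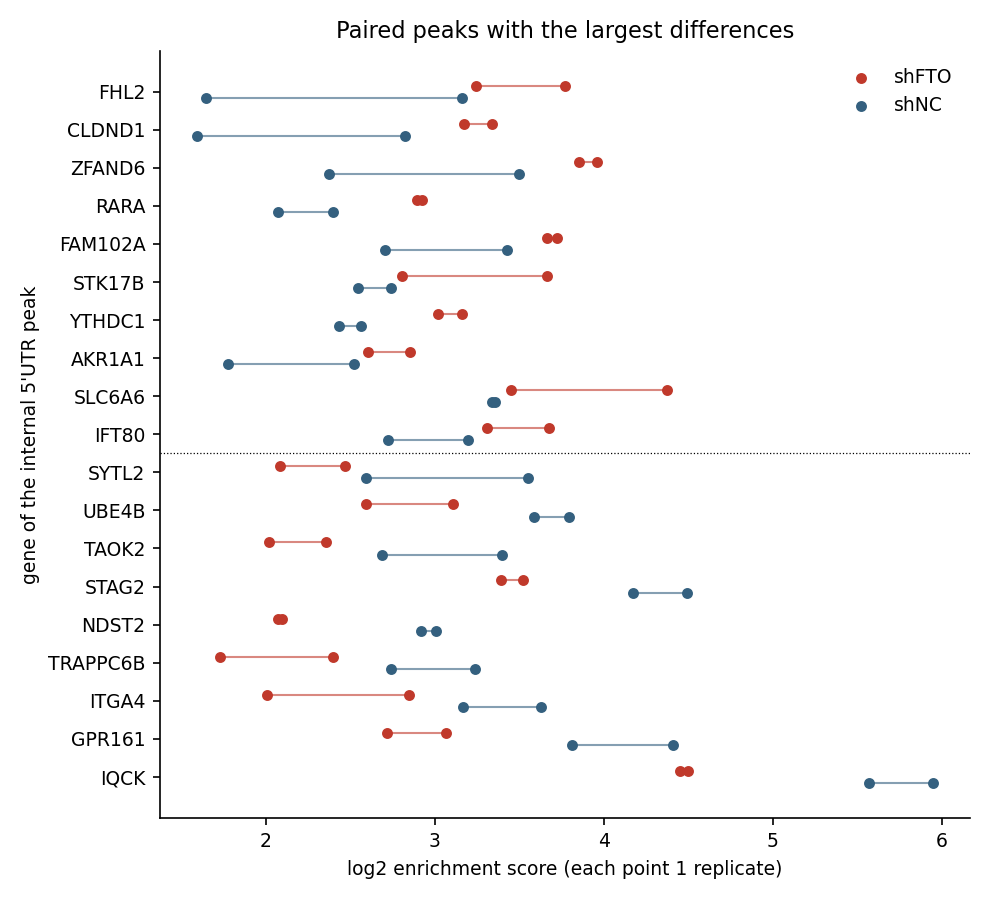
Log2 enrichment scores of each replicate (points; lines join replicates of 1 group) for 19 of the 20 paired internal 5′UTR peaks with the largest differences whose groups do not overlap and whose score is above the median; shFTO is drawn above shNC in each row, and the dotted line parts higher from lower. FHL2, at the top, has shNC scores of 3.16 and 1.64, and IQCK, at the bottom, has shFTO scores of 4.45 and 4.50 against 5.95 and 5.57 in shNC.

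Replicates of single pairs differed by very little or by more than 1 on the log2 scale. The 3 pairs with the smallest spread were PRELID1, with 1.02 and 1.01 in shFTO and 1.06 and 1.07 in shNC, SLC35F5, with 1.21 and 1.23 in shFTO and 1.06 and 1.07 in shNC, and YWHAB, with 3.73 and 3.71 in shFTO and 3.55 and 3.50 in shNC. These pairs were picked for small spread, and their log2 ratios lay between -0.05 and 0.20. The largest spreads were those of GTF2I, with 1.82 and 2.16 in shFTO and 3.92 and 1.91 in shNC, KDELC1 (POGLUT2 in current annotation), with 1.89 and 3.72 in shFTO and 2.19 and 2.19 in shNC, and BIVM, with 3.67 and 1.91 in shFTO and 2.25 and 2.80 in shNC. In each of these 1 replicate stood apart, and the groups overlapped.

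The ratio of an internal 5′UTR peak went with that of other peaks on its mRNA. For 240 of the 418 pairs, another compared peak outside the internal 5′UTR lay on the same mRNA, and the ratio of the internal peak correlated with the median ratio of those peaks with r = 0.41 (Spearman 0.35). The signs were the same in 150 of 240. Among the 42 of them with a log2 ratio of at least 0.5 in size, 34 had the same sign, and in 10 the other peaks were also at 0.5 or more in the same direction. Peaks of 1 mRNA share the libraries and the median window they are divided by, so this is given as a description. CLDND1 was one example, with a ratio of 1.05 in the internal 5′UTR peak and 0.71 in its start codon peak. STK17B had 0.59 in the internal peak and 1.07 in its other peak. GPR161 and TRAPPC6B were unlike these, with -1.22 against -0.12 and -0.93 against 0.21 in their other compared peak.

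**Figure D5:**
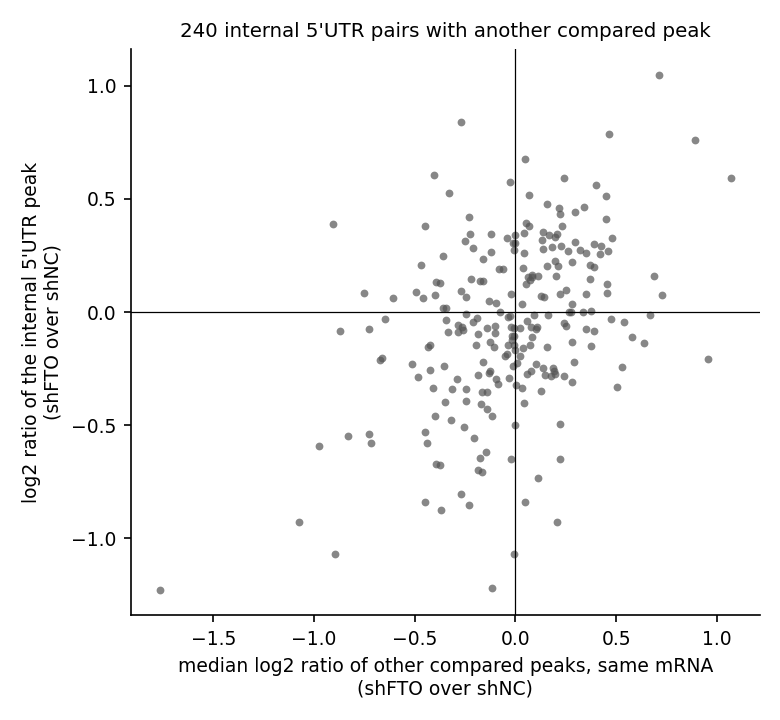
Log2 ratio of shFTO over shNC of the internal 5′UTR peak (vertical) against the median log2 ratio of the other compared peaks of the same mRNA (horizontal), each point 1 of 240 pairs. The points lean along the diagonal, with r = 0.41.

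On mRNAs with an internal 5′UTR peak, that peak was often not the highest. It was the only kind of peak listed on 172 of 738 mRNAs in shFTO (23.3%) and 171 of 728 in shNC (23.5%). On the mRNAs that also had other peaks, an internal 5′UTR peak was the highest in 168 of 566 in shFTO (29.7%, 25.9 to 33.6%) and 175 of 557 in shNC (31.4%, 27.6 to 35.5%). The same share was 32.7% in shFTO and 33.2% in shNC for 5′UTR peaks that began at the first base. For start codon peaks it was 32.8% in shFTO and 34.3% in shNC. Each of these values lay within the interval of the internal peaks of the same group. The share was 53.3% in shFTO and 52.8% in shNC for CDS peaks. For stop codon peaks it was 55.2% in shFTO and 53.4% in shNC. These shares were not tested. A start codon peak was also present on 17.5% of the mRNAs with an internal 5′UTR peak in shFTO and 17.6% in shNC. This stood beside 34.3% of all mRNAs with a peak in shFTO and 35.4% in shNC. A stop codon peak was also present on 37.0% in shFTO and 36.0% in shNC, beside 40.9% in shFTO and 41.4% in shNC of all mRNAs with a peak. All mRNAs with a peak include those listed for a start or stop codon peak alone. Part of these differences thus follows from how the sets were formed.

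Among the gene lists, which were chosen with earlier results of these data known, internal 5′UTR peaks were found on few members, and none of the pairs passed an adjusted p of 0.05. Over all mRNAs with a peak, 8.12% in shFTO and 8.15% in shNC carried one. Of 24 m6A writers, erasers and readers, all with a peak somewhere, 4 had an internal 5′UTR peak in shFTO (YTHDC1, YTHDF3, CBLL1 and HNRNPC) and 2 in shNC (YTHDC1 and METTL5). The YTHDF3 peak of shFTO had scores of 2.23 and 0.60, and that of HNRNPC 1.01 and 1.27, both low in at least 1 replicate. CBLL1, a subunit of the methyltransferase complex, had 1.75 and 2.31 in shFTO. The METTL5 peak of shNC overlapped a start codon peak of shFTO.

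Stress response and upstream open reading frame mRNAs had an internal 5′UTR peak in 3 of 28 listed mRNAs in shFTO and 6 of 28 in shNC. ATF3, a stress-induced transcription factor, had 1.95 and 1.57 in shFTO and 1.31 and 1.16 in shNC, with a log2 ratio of 0.53 (adjusted p of 0.893 in limma) and peaks of unequal width. SLC35A4, whose upstream open reading frame is known to be translated, had 2.29 and 2.81 in shFTO and 2.64 and 2.44 in shNC, with overlap of the groups. HSPH1, a heat shock chaperone, had 2.77 and 2.73 in shFTO and 3.14 and 2.58 in shNC, also with overlap. Peaks of IFRD1, EPRS (EPRS1 in current annotation) and SESN2 were internal 5′UTR peaks in shNC alone, where that of EPRS overlapped a start codon peak of shFTO.

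Translation initiation genes had an internal 5′UTR peak in 4 of 42 in shFTO and 3 of 43 in shNC. The EIF4G1 peak, on the scaffold of the cap-binding complex, had scores of 1.50 and 1.38 in shFTO and 1.73 and 1.68 in shNC at the same positions 309 to 409, a log2 ratio of -0.26 (adjusted p of 0.967 in limma). EIF5, a start codon recognition factor, had abutting peaks that were cut differently, at 3.15 and 3.38 and at 3.37 and 2.74 in shFTO, and at 3.20 and 2.49 and at 1.85 and 1.07 in shNC. Its leader could not be paired one to one. EIF4E, the cap-binding protein, had a peak in shFTO alone, at 1.37 and 0.82.

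Of the mRNA decay genes, 5 of 31 in shFTO and 3 of 30 in shNC had an internal 5′UTR peak. The 3 that could be paired, CNOT8 and CNOT2 of the deadenylase complex and DCP1A of the decapping complex, had both shFTO scores below both shNC scores, as did 17.7% of all pairs, with log2 ratios of -0.55, -0.16 and -0.32 and unadjusted p above 0.05. CNOT8 had 1.92 and 1.96 in shFTO and 2.80 and 2.18 in shNC. The other compared peaks of these mRNAs had median log2 ratios of -0.83 in CNOT8, 0.04 in CNOT2 and -0.09 in DCP1A. In the immediate early list, FOSB had 3.48 and 3.68 in shFTO and 3.43 and 2.97 in shNC, with 3 listed GGACU. In the autophagy and NF-kB list, TNFAIP3, which restrains NF-kB signalling, had 1.79 and 1.87 in shFTO and 1.33 and 1.16 in shNC at the same positions 61 to 310, a log2 ratio of 0.58 (adjusted p of 0.858 in limma), while OPTN and ATG13 had overlapping groups. The immediate early list had an internal 5′UTR peak in 2 of 22 mRNAs in shFTO and 2 of 21 in shNC, and the autophagy and NF-kB list in 4 of 35 in shFTO and 3 of 35 in shNC. For interferon gamma signalling and antigen presentation the counts were 1 of 21 in shFTO and 2 of 22 in shNC.

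Of the MAPK, PI3K and mTOR genes, 4 of 34 in shFTO and 3 of 33 in shNC had an internal 5′UTR peak. RPS6KB1, the p70 S6 kinase below mTOR, had 2.78 and 3.09 in shFTO and 3.17 and 2.70 in shNC, and its log2 ratio was 0.01. RPTOR, the mTORC1 scaffold, was covered by 2 abutting peaks in shFTO (2.75 and 2.87, 1.94 and 1.80) and by 1 in shNC (2.47 and 2.74). PIK3R1, the regulatory subunit of PI3K, had 3.39 and 3.02 in shFTO at positions 94 to 428 and 4.53 and 4.47 in shNC at positions 6 to 447, and was not in a one-to-one pair. Zinc finger genes with a ZNF symbol carried an internal 5′UTR peak in 8 of 265 in shFTO (3.02%) and 11 of 246 in shNC (4.47%). Ribosomal protein and other terminal oligopyrimidine mRNAs did so in 2 of 57 in shFTO and 2 of 52 in shNC, where the name pattern also took in RPS6KB1. Chromatin regulators did so in 5 of 45 in shFTO and 2 of 46 in shNC, and cell cycle and p53 genes in 2 of 17 in shFTO (CCND3 and MAX) and 0 of 19 in shNC. The shFTO peak of MAX, at 1.03 and 0.91, overlapped a start codon peak of shNC, and that of CCND3 had 1.42 and 0.99. Among the chromatin regulators, the shFTO peak of KDM5C overlapped a shNC peak at position 1. SMARCA5, an ATPase of nucleosome remodelling, had 2.73 and 2.26 in shFTO and 3.01 and 2.84 in shNC, and KDM5A, a histone demethylase, had a peak in shFTO alone at 3.41 and 3.40.

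The lists as a whole held the markers of the labelled cell type. All 10 melanocyte markers had a peak somewhere in shFTO and 9 of 10 in shNC, against 0 of 10 keratinocyte, 1 of 10 fibroblast (LUM) and at most 3 of 11 leukocyte markers (CD68 and LYZ in both lists and ITGAM in shFTO). None of these markers had an internal 5′UTR peak in either list. From the wider melanocyte and pigmentation list, LEF1, a transcription factor of WNT signalling, was the 1 gene with an internal 5′UTR peak, at 3.44 and 3.39 in shFTO in a single peak and at 3.67 and 2.63 and 3.62 and 2.81 in shNC in 2 abutting peaks. A list of 9 genes was picked from the study's text: FTO, PDCD1, CD274, CD47, CXCR4, SOX10, YTHDF2, METTL3 and METTL14. Of these, 8 had a peak in shFTO and 7 in shNC, and 0 had an internal 5′UTR peak. The study also names YTHDF3 and the p70 S6 kinase (RPS6KB1), which were not in this list. Their internal 5′UTR peaks are given above. TEAD1, of the invasive melanoma list, had 3.36 and 2.24 in shFTO and 2.35 and 2.91 in shNC.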

How the data were processed

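m6A-seq of shFTO and shNC Mel624 cells gave 2 IP and 2 input libraries per group. Per the methods and the submitters' processing notes, the authors removed adapters with cutadapt, aligned reads to hg38 with TopHat2 version 2.0.14, moved them to the longest RefSeq isoform of each gene, scanned sliding windows with a Fisher exact test and merged windows that passed. They deposited 1 list per group with a log2 enrichment score per replicate. With no read counts in the lists, the depth of each sample is unknown. The step from 2 replicates to 1 list is not stated. The score removes changes of a whole mRNA, and the level of FTO was not analysed here.

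The members, gene lists and comparisons were chosen with earlier results of these data known. Pairs were tested with limma version 3.58.1 in R 4.3.3 (lmFit and eBayes, group as the only term, Benjamini-Hochberg over all 12117 pairs) on the deposited log2 scores; the fit was tested on simulated data. Other steps ran in Python 3.11.15 with pandas 2.3.3, numpy 2.4.6, matplotlib 3.10.9 and scipy 1.17.1. Named genes were the 12 highest pairs, the 10 highest and 10 lowest ratios above the median score without overlap, the 5 highest unpaired peaks per list, up to 4 peaks per gene list, others beside their list's counts, the 5 isoforms with most peaks and the 3 smallest and 3 largest spreads. Transcript sequences came from GENCODE version 44. They were used where GGACT stood at a shift of -3 nt from the listed positions of an isoform, or at their spacing after another shift. Of the isoforms, 395 could not be placed, 10 had several placements and 370 had no listed motif. All 335 sites within 1 exon had the same bases in hg38. Chromosomes and current symbols were looked up in RefSeq genes (GRCh38), which also gave symbols for 7 peaks whose symbol had been stored as a date. A few of the named genes are not reported here. Alternatives covered other overlap rules, score filters, centring, a replicate block, leaving out each replicate, later starts and joined peaks.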

Additional observations from a re-analysis of the deposited data

How the results depend on the processing

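In limma, 0 of the internal 5′UTR pairs passed an adjusted p of 0.05 under any alternative, while over all pairs 6 passed without shNC replicate 2, 7 without shFTO replicate 1, 11 without shFTO replicate 2, 13 with a crossed pairing and 0 under the others. At an unadjusted p of 0.05, the number higher in shFTO was 12 of 498 with 0.5 of each peak overlapping (beside 2.33% of all pairs), 13 of 474 with centres within 50 nt (2.34%), 4 of 240 with mean scores of at least 2 (2.34%) and 11 of 558 with partners of any region label (2.3%), where 7 of 418 are reported. The number lower was 9 of 240 with mean scores of at least 2 (3.36% of all pairs) and 26 of 558 with partners of any label (3.68%), where 15 are reported. Leaving out each replicate gave 7 to 10 higher (2.46 to 2.72% of all pairs), 12 to 23 lower (2.46 to 5.1%) and a median log2 ratio between -0.082 and 0.085, so its sign rests on single libraries: it was -0.06 without shFTO replicate 1, 0.085 without shNC replicate 1 and -0.082 without shNC replicate 2, where the 23 lower also arose (4.5% of all pairs). Centring gave a median of 0.02. Replicates share only a number: as a block it gave 4 higher and 11 lower (1.5% and 2.64% of all pairs), and same-numbered deviations correlated at -0.17, so a crossed pairing, chosen after seeing the data, was also fitted and gave 12 higher and 23 lower (3.97% and 5.51%). None of the 20 pairs with the largest differences passed after adjustment in the fits with 2 replicates per group. None changed sign, but pairs picked without overlap of the groups keep their sign when any replicate is left out. The block and crossed fits leave each ratio unchanged, so the signs are no check of these pairs. The GGACU share was 34.6% in shFTO and 34.1% in shNC at mean scores of at least 2, and 15.2% in shFTO and 15.1% in shNC within 50 nt of the peak centre. Peaks without counterpart numbered 235 in shFTO and 238 in shNC with 0.5 of each peak overlapping and 270 in shFTO and 276 in shNC with centres within 50 nt. With mean scores of at least 2 there were 433 shFTO and 481 shNC peaks, of which 49 of shFTO and 69 of shNC lacked a counterpart. Starts above 50 gave 99 unpaired of 548 shFTO peaks and 119 of 571 shNC peaks, with median starts of 182.5 in shFTO and 192 in shNC. Joining abutting peaks gave 658 shFTO and 648 shNC peaks. The lists cannot show places below the calling threshold, and unknown depth limits every score.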
